A study of Homo sapiens with 6 samples.

Results

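DDIT4 and 9 genes of the mTOR pathway were followed in RNA-seq libraries of OVCAR3, a human ovarian cancer line that is long established in culture, after knockdown of NUF2, a subunit of the Ndc80 kinetochore complex. The 10 genes (DDIT4, MTOR, RPTOR, RICTOR, TSC1, TSC2, RHEB, DEPTOR, EIF4EBP1 and RPS6KB1) were chosen by name out of 19973 genes listed in the count table, with earlier results of these data known. All 10 were among the 12874 genes with enough reads to be tested. The control group, shNC, consisted of 3 libraries of cells that carried a control short hairpin RNA, and the shNUF2 group consisted of 3 libraries of cells that carried 1 hairpin against NUF2. Both groups had been transfected, the NUF2 hairpin in a plasmid with a puromycin resistance gene. The paper describes stable NUF2-silenced and control OVCAR3 cells, but its RNA sequencing methods say only that the cells had been transfected. The plasmid of the control hairpin is not given in the sources used here. Only 1 hairpin was used, and neither the labels nor the methods state that the libraries of a group came from separate cultures. The p-values below therefore measure the spread between these libraries, which may be technical.

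The kinase mTOR works in separate complexes. In mTOR complex 1 it is joined by RPTOR, which recruits substrates such as the translation repressor EIF4EBP1 and the kinase RPS6KB1, and the complex promotes protein synthesis and restrains autophagy when nutrients and growth factors are present. In mTOR complex 2 it is joined by RICTOR, and that complex phosphorylates AKT. The GTPase RHEB activates mTOR complex 1, the TSC1 and TSC2 proteins together switch RHEB off, DEPTOR binds and inhibits mTOR, and DDIT4 (also called REDD1), which is induced by stress such as hypoxia or amino acid shortage, lowers the activity of mTOR complex 1 through TSC2. RNA levels do not report the phosphorylation or activity of these proteins.

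The hairpin was checked first. Its target is shown because it defines what was knocked down, and the guide strand is printed with its seed (bases 2 to 8) in capitals.
shNUF2 target: cttcttaccattcagcaattt
shNUF2 guide: aAATTGCTgaatggtaagaag
The target lies on chromosome 1 of GRCh38 from 163328272 to 163328292, in the coding sequence of exon 4 of the 14 exons of transcript NUF2-201 (GENCODE release 29), and NUF2 was the only tested gene (1 gene) that contained it. The sequence complementary to the seed was found in the longest annotated 3′ UTR of 0 of the 10 genes, compared with 14.3% of 12701 tested genes that have such a UTR. The median log2 fold change was -0.0448 for tested genes with this sequence and -0.00398 for those without it. Other partial matches were not searched, and effects of the hairpin on genes other than NUF2 were not tested. NUF2 itself had 65.2 ± 2.94 CPM (counts per 1000000 of the scaled library size) with shNC and 22.9 ± 2.40 CPM with shNUF2 (SD, n = 3 libraries each), a log2 fold change of -1.51 (standard error 0.08, adjusted p = 2.17e-15; here and below, adjusted p-values from edgeR are those of its quasi-likelihood F test, adjusted over all genes tested by the Benjamini-Hochberg method). Total counts ranged from 13057534 to 16995452 per library, and the 10 genes had between 82 and 10639 reads in a library. Of 8 epithelial and ovarian carcinoma markers, 7 had more than 3 reads in a library, and WFDC2 had 3 reads or fewer throughout. Their summed level was 893 to 943 CPM with shNC and 1080 to 1160 CPM with shNUF2. The single genes were split, with 4 higher and 2 lower of 7 tested at an adjusted p under 0.05. Of 6 leukocyte markers, 4 had more than 3 reads in a library. The list summed to 1.59 to 2.42 CPM with shNC and 3.91 to 6.43 CPM with shNUF2. Of 4 endothelial markers, 3 had more than 3 reads in a library, with sums of 1.78 to 3.4 CPM and 3.33 to 4.98 CPM, respectively. The leukocyte marker tested (1) was called higher, as was 1 of the 2 endothelial markers tested. CD3E, CD68 and KDR had 3 reads or fewer in each library. Fibroblast markers summed to 85.5 to 91.7 CPM with shNC and 68.1 to 75.4 CPM with shNUF2, with COL1A2, LUM and THY1 at 3 reads or fewer in every library. Of the 3 fibroblast markers tested, 1 was higher and 1 lower. These calls stand beside 33.9% of all genes tested called higher and 33.8% called lower.

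With shNUF2, 6 of the 10 genes were lower (DDIT4, MTOR, RPTOR, TSC2, EIF4EBP1 and RPS6KB1), RICTOR and TSC1 were higher, and RHEB and DEPTOR did not pass the test at an adjusted p under 0.05. Over all genes tested, 33.9% were called higher and 33.8% lower at this threshold, so that a call by itself was common in these libraries. The median log2 fold change of the 10 genes was -0.29, beside -0.01 over all genes tested. At the thresholds of the paper (an unadjusted p under 0.05 together with a fold change above 1 or below -1, read here as log2 values because the paper does not name the scale), DDIT4 was the only member called (1 lower, 0 higher), where 4.16% of all genes were lower and 9.41% higher. For 8 of the 10 genes the values of the groups did not overlap, compared with 70.6% of all genes tested. In bulk RNA, fewer cells with a transcript and less of it per cell cannot be told apart, and this holds for each value below.

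**Figure D1:**
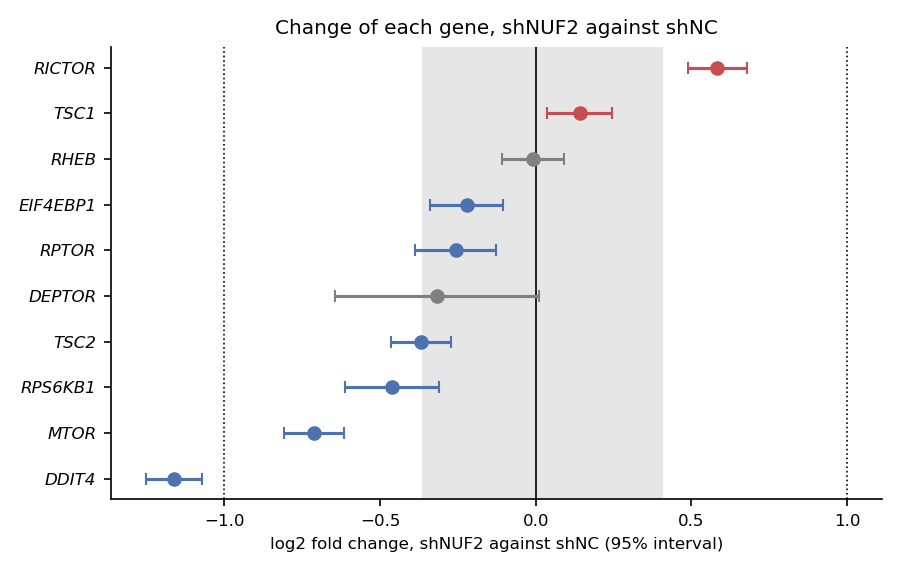
Log2 fold change of each of the 10 genes, shNUF2 against shNC, with its 95% interval from edgeR. Blue genes were lower and red genes higher at an adjusted p under 0.05, grey genes were not called, the grey band spans the interquartile range of all genes tested (-0.36 to 0.41), and dotted lines mark a log2 fold change of 1 in either direction; DDIT4 at -1.16 is the gene beyond them.

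DDIT4 (ENSG00000168209) is located on chromosome 10 of GRCh38 from 72273924 to 72276036 on the plus strand. It had 651, 610.1 and 618 CPM in the shNC libraries and 271, 275 and 293 CPM in the shNUF2 libraries. Every shNUF2 library was thus well below every shNC library, and replicates of a group lay close together. The mean level was 626 ± 21.5 CPM with shNC and 279.9 ± 11.8 CPM with shNUF2 (SD, n = 3 libraries each), a change of -55.3%. The log2 fold change was -1.16 with a 95% interval of -1.25 to -1.07 (standard error 0.04, adjusted p = 3.42e-18 by the quasi-likelihood test of edgeR, Benjamini-Hochberg). Among all genes tested, 2.52% had a lower log2 fold change. DDIT4 is also listed by the study among the downregulated genes of a pathway from these same libraries, so that its change here is not independent evidence. In GENCODE release 29, the antisense gene DDIT4-AS1 shares 847 bp of exon with DDIT4 on the opposite strand, 41.2% of the exon sequence of DDIT4. It is not among the genes of the count table. The libraries were made with a stranded kit, but the strand setting of the counting is not given in the sources used here, and the part of antisense reads in the DDIT4 count was not tested.

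The DDIT4 promoter is shown as the reference sequence of the member that changed most, with the promoters of MTOR and RICTOR, which moved in opposite directions, for comparison. Each is the RefSeq sequence (GRCh38.p14) of the 300 bases from 250 before the transcription start to 50 from it, on the strand of the gene. Capitals mark matches on either strand to ACGTG (the core letters of a hypoxia response element), CCAAT (read as ATTGG on the other strand) or TATAA (read as TTATA).
DDIT4 promoter, chr10:72273674-72273973, plus strand: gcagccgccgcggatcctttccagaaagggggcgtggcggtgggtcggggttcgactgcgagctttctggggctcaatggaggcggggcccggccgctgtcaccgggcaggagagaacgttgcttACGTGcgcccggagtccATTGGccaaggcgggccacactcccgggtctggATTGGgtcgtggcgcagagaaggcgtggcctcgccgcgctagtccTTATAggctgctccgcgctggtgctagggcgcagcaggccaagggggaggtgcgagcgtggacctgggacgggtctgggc
MTOR promoter, chr1:11262502-11262801, minus strand: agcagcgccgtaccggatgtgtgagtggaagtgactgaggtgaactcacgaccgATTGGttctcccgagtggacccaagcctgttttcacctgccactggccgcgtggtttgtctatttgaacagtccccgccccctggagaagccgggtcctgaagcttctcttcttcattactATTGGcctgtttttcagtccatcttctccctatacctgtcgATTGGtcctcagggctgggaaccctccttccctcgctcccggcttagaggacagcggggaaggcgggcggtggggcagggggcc
RICTOR promoter, chr5:39074350-39074649, minus strand: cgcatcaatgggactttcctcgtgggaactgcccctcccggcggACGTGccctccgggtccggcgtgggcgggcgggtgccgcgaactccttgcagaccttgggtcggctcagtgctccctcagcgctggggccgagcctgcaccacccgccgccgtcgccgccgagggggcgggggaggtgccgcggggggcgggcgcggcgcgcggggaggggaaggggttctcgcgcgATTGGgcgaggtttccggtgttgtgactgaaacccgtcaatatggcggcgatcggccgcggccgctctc
Positions are those of the first base of a match, counted from the transcription start. In DDIT4 the letters ACGTG lie at -125, ATTGG at -108 and -75, and TTATA at -30. MTOR has ATTGG at -196, -75 and -34 and no match to the other motifs, while RICTOR has ACGTG at -206 and ATTGG at -19. Of 35116 RefSeq promoters of this length, 21.4% hold ACGTG on either strand, 34.6% hold CCAAT and 20.4% hold TATAA. The amino acid response letters TGATGNAA, which 3.62% of the promoters hold, were searched on both strands as well, and of the 8 members with an entry in the promoter table only TSC2 had them (TGATGCAA at -110, where it overlaps the end of a CACGTG). These matches are letters in a window, and binding at them was not measured. The GC content was 69.7% for DDIT4, 59.3% for MTOR and 74.0% for RICTOR, beside a median of 58.7% over all promoters.

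Among the kinase and its partners, MTOR fell and the partner genes went apart. MTOR, the catalytic subunit of both complexes (chromosome 1, 11106535 to 11262551, minus strand), had 169, 172 and 178 CPM with shNC and 106, 102 and 109 CPM with shNUF2. All 3 shNUF2 libraries were below the shNC libraries, with means of 173 ± 4.41 and 106 ± 3.31 CPM (SD, n = 3 libraries each) and a log2 fold change of -0.71 (95% interval -0.81 to -0.61, adjusted p = 4.19e-13 by the quasi-likelihood test of edgeR, Benjamini-Hochberg). RPTOR, the scaffold of mTOR complex 1 (chromosome 17, 80544819 to 80966371, plus strand), had 52.3, 54.8 and 55.6 CPM with shNC and 44.7, 46.3 and 45.1 CPM with shNUF2. Its groups did not overlap either, but its change was smaller, with a log2 fold change of -0.26 (95% interval -0.39 to -0.13, adjusted p = 0.000882 from the same edgeR test).

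RICTOR, the scaffold of mTOR complex 2 (chromosome 5, 38937920 to 39074399, minus strand), had 267, 272 and 269 CPM with shNC and 433, 381 and 396 CPM with shNUF2. It was higher in every shNUF2 library than in any shNC library, and its shNUF2 libraries were more spread than its shNC libraries. The means were 269 ± 2.69 and 403 ± 26.4 CPM (SD, n = 3 libraries each), a rise of 49.8% and a log2 fold change of 0.58 (95% interval 0.49 to 0.68, adjusted p = 1.45e-11 by the quasi-likelihood test of edgeR, Benjamini-Hochberg). Of all genes tested, 18.1% had a higher log2 fold change. In GENCODE release 29, 229 bp of exon (1.69% of the exon sequence of RICTOR) overlap OSMR on the opposite strand, and OSMR had a log2 fold change of 0.54 in these libraries. The part of OSMR reads in the RICTOR count was not tested.

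The ratio of RICTOR to RPTOR was calculated from FPKM (reads per kilobase of gene length and per 1000000 reads) within each library, which removes the scaling between libraries. It was 3.88, 3.78 and 3.68 with shNC and 7.36, 6.26 and 6.68 with shNUF2. The groups were apart, with a fold of 1.79 between them. On the log2 scale the difference was 0.84 (two-sided exact permutation, p = 0.10, and 0.133 adjusted over 4 ratios by the Benjamini-Hochberg method). No comparison of 3 libraries with 3 can give a p under 0.10 by this test.

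**Figure D2:**
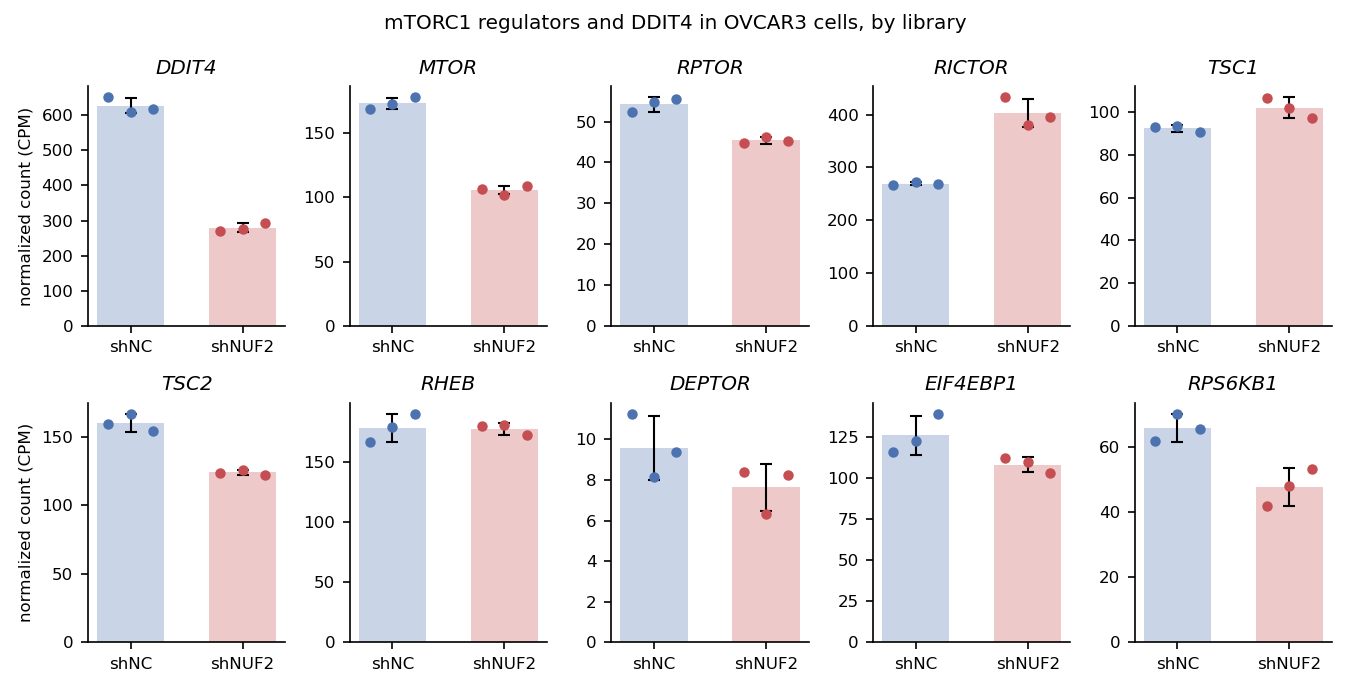
Normalized level (CPM) of each of the 10 genes in each library, with 1 panel per gene, points for the 3 shNC (blue) and the 3 shNUF2 (red) libraries, bars for the group mean and whiskers for its SD. The groups are apart in 8 panels, with DDIT4 falling from 626 to 279.9 CPM, and overlap for RHEB and DEPTOR.

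The inhibitory side of the pathway also moved unevenly. TSC2, the subunit of the TSC complex that acts on RHEB (chromosome 16, 2047967 to 2089491, plus strand), had 159.7, 167 and 154 CPM with shNC and 124, 126 and 122 CPM with shNUF2. The groups did not overlap, and the log2 fold change was -0.37 (95% interval -0.46 to -0.27, adjusted p = 1.13e-07 by the quasi-likelihood test of edgeR, Benjamini-Hochberg). TSC2 shares 778 bp of exon with PKD1 and 402 bp with NTHL1 on the opposite strand, whose log2 fold changes were -0.28 and -0.74. Their part in its count was not tested.

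TSC1, the partner that stabilizes TSC2 (chromosome 9, 132891348 to 132946874, minus strand), had 93.1, 93.7 and 90.6 CPM with shNC and 107, 102 and 97.1 CPM with shNUF2. The values of the groups were apart but close to each other, and the log2 fold change was 0.14 (95% interval 0.04 to 0.25, adjusted p = 0.0163 by the quasi-likelihood test of edgeR, Benjamini-Hochberg). This call was lost without shNC replicate 3 (adjusted p = 0.0734) and without shNUF2 replicate 1 (adjusted p = 0.0938 from the same edgeR test). It was also lost with library totals as the only scaling (adjusted p = 0.0700), with no filter on low counts (0.0594) and with limma on log2 of FPKM plus 1 (0.202).
The FPKM ratio of TSC1 to TSC2 was 0.633, 0.611 and 0.639 with shNC and 0.938, 0.880 and 0.862 with shNUF2. The ratio was thus higher in every shNUF2 library, by a fold of 1.42 and by 0.51 on the log2 scale (exact two-sided permutation test, p = 0.10, adjusted p = 0.133 over the 4 ratios).

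RHEB (chromosome 7, 151466012 to 151520120, minus strand), the activating GTPase, had 166, 179 and 189 CPM with shNC and 179, 180.3 and 172 CPM with shNUF2. The groups overlapped, and the log2 fold change was -0.01 with a 95% interval of -0.11 to 0.09 (adjusted p = 0.877 by the quasi-likelihood test of edgeR, Benjamini-Hochberg). Reads of RHEB can be shared with its 3 annotated pseudogenes. The FPKM ratio of DDIT4 to RHEB was 6.74, 5.87 and 5.63 with shNC and 2.61, 2.62 and 2.94 with shNUF2. It fell by 1.16 on the log2 scale (exact two-sided permutation test, p = 0.10, adjusted p = 0.133 over the 4 ratios), with no overlap between groups.

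DEPTOR (chromosome 8, 119873717 to 120050918, plus strand), an inhibitor that binds mTOR, was the member with the fewest reads, 160, 130 and 161 in the shNC libraries against 113, 82 and 124 in the shNUF2 libraries. These reads gave 11.3, 8.13 and 9.36 CPM with shNC and 8.38, 6.31 and 8.24 CPM with shNUF2, and the groups overlapped. The log2 fold change was -0.32 with a wide 95% interval of -0.64 to 0.01 (standard error 0.16, adjusted p = 0.0802 by the quasi-likelihood test of edgeR, Benjamini-Hochberg). It passed the threshold without shNC replicate 2 (adjusted p = 0.0352 from the same edgeR test), with library totals only (0.0490), with no filter (0.0451) and with limma on log2 of FPKM plus 1 (0.0475), so that the call depended on 1 control library and on the scaling and filter. In the other direction, the log2 fold change was -0.20 without shNC replicate 1 (adjusted p = 0.326) and -0.20 without shNUF2 replicate 2 (adjusted p = 0.308, both by the same edgeR test). An annotated noncoding gene on the opposite strand shares 252 bp, or 9.61%, of its exon sequence, and the part of such reads was not tested.

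The members EIF4EBP1 and RPS6KB1, which are substrates of mTOR complex 1, were lower. EIF4EBP1, which blocks cap-dependent translation until mTOR complex 1 phosphorylates it (chromosome 8, 38030534 to 38060365, plus strand), had 116, 123 and 139 CPM with shNC and 112, 109.8 and 103 CPM with shNUF2. The lowest shNC and the highest shNUF2 libraries were close, and the log2 fold change was -0.22 (95% interval -0.34 to -0.10, adjusted p = 0.00134 by the quasi-likelihood test of edgeR, Benjamini-Hochberg). One annotated pseudogene (1) can share its reads.
RPS6KB1, the S6 kinase that promotes translation (chromosome 17, 59893046 to 59950574, plus strand), had 61.7, 70.1 and 65.6 CPM with shNC and 41.9, 47.9 and 53.3 CPM with shNUF2. Its groups did not overlap, and its log2 fold change was -0.46 (95% interval -0.61 to -0.31, adjusted p = 4.02e-06 by the quasi-likelihood test of edgeR, Benjamini-Hochberg). AC005702.1, on the same strand, shares 149 bp, or 1.94%, of the exon sequence of RPS6KB1. It had too few reads to be tested, and its part in the RPS6KB1 count was not tested. The FPKM ratio of RPS6KB1 to EIF4EBP1 was between 0.0538 and 0.0652 with shNC and between 0.0428 and 0.0590 with shNUF2, and the groups overlapped. Its log2 difference was -0.25 (exact two-sided permutation test, p = 0.20 before and after adjustment over the 4 ratios), and -0.14 without shNUF2 replicate 1.

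**Figure D3:**
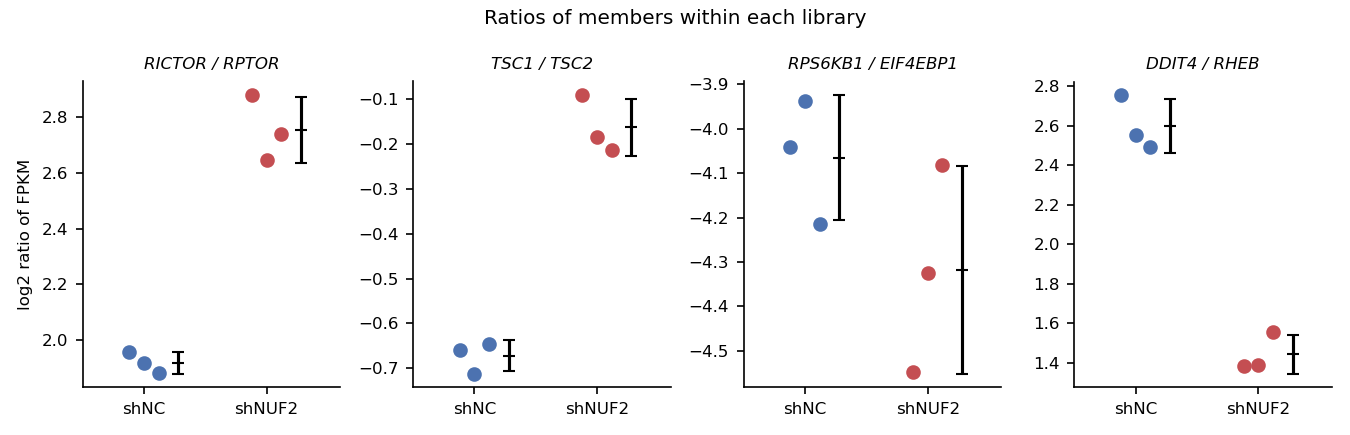
Log2 ratio of the FPKM values of a pair of genes within each library, for 4 pairs, with the 3 shNC and 3 shNUF2 libraries as points. RICTOR to RPTOR and TSC1 to TSC2 were higher with shNUF2 (by 0.84 and 0.51) and DDIT4 to RHEB was lower (by -1.16), each without overlap, and the groups overlap for RPS6KB1 to EIF4EBP1.

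Levels of different genes were compared by FPKM, which takes gene length into account. DDIT4 was the most abundant of the 10 transcripts in both groups, with 309 ± 9.07 FPKM with shNC and 134 ± 6.07 FPKM with shNUF2 (SD, n = 3 libraries each). EIF4EBP1 came next with 145 ± 13.8 and 122 ± 4.87 FPKM, so that DDIT4 was above it in both groups. With the length of the longest coding transcript in place of the gene length, the mean FPKM values of DDIT4 and EIF4EBP1 were 363 and 125 with shNC and 158 and 105 with shNUF2, respectively. RHEB had 51.0 ± 3.45 and 49.4 ± 1.40 FPKM, and RICTOR 20.1 ± 0.305 and 29.4 ± 1.65 FPKM. The order then continued with MTOR (14.4 ± 0.401 and 8.56 ± 0.236 FPKM), TSC2 (8.48 ± 0.367 and 6.40 ± 0.136), RPS6KB1 (8.66 ± 0.602 and 6.12 ± 0.764), TSC1 (5.32 ± 0.106 and 5.72 ± 0.244), RPTOR (5.33 ± 0.189 and 4.35 ± 0.118) and DEPTOR (3.69 ± 0.586 and 2.87 ± 0.415). Neighbours in this order whose library values overlapped were TSC2 and RPS6KB1 in both groups, RPS6KB1 and TSC1 with shNUF2, and TSC1 and RPTOR with shNC. The gene length in the table was up to 3.02 times (TSC2) the length of the longest coding transcript, and with that transcript's length in its place, chosen after the values were seen, TSC2 ranked above MTOR in both groups, and TSC1 ranked above RPS6KB1 by the mean over all 6 libraries and with shNUF2 (11.5 against 8.60) but not with shNC (10.7 against 12.2).

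**Figure D4:**
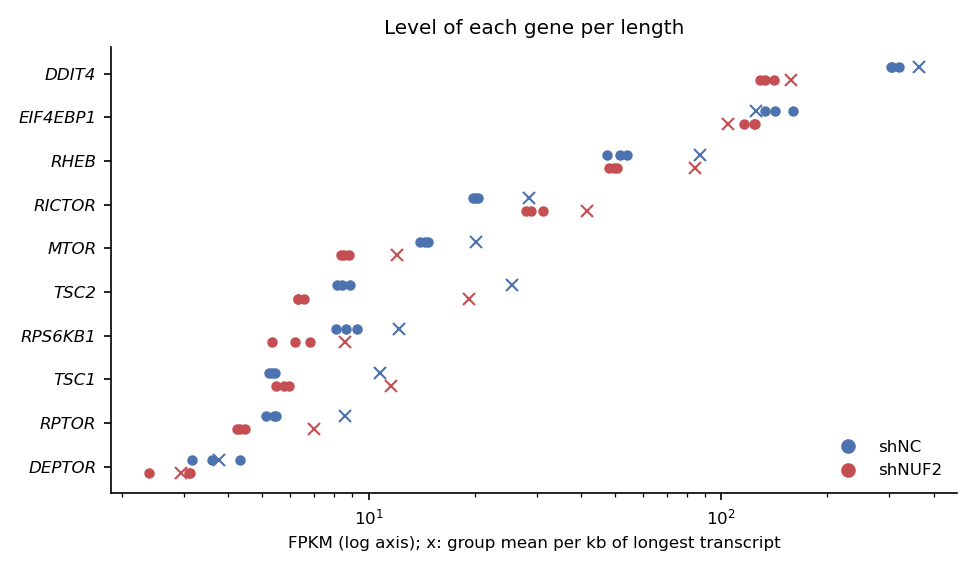
FPKM of each of the 10 genes on a log axis, in order of the mean over all 6 libraries, with points for the 3 libraries of each group (shNC blue, shNUF2 red) and a cross for the group mean per length of the longest coding transcript. The mean levels run from 309 FPKM for DDIT4 with shNC to 2.87 FPKM for DEPTOR with shNUF2, and the shNUF2 values of RICTOR and TSC1 lie to the right of the shNC values.

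The genes around these members were examined in 7 lists with 96 genes, of which 92 were tested. Of these, 35 (38.0%) were higher and 30 (32.6%) lower at an adjusted p under 0.05, shares close to those of all genes, and the median log2 fold change was -0.0042 (range -1.11 to 3.49). At the thresholds of the paper, 8 were higher and 3 lower, again near the shares of all genes (9.41% and 4.16%). The counts of each list below stand beside 33.9% of all genes higher and 33.8% lower, and no list was tested against them.

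Of 9 listed genes, namely 8 further subunits and assembly factors of the mTOR complexes and the TSC complex subunit TBC1D7, 5 were lower and 2 higher, with a median log2 fold change of -0.26. MLST8, a subunit of both complexes, was at -0.78 (standard error 0.08), from 61.4 to 35.8 CPM. PRR5L, which binds mTOR complex 2, was at 0.75 (0.14), and TBC1D7 at -0.49 (0.12). The number of higher genes was 1 without shNC replicate 2 or 3 and without shNUF2 replicate 1 or 2.
The Rag GTPases, Ragulator and folliculin genes, which bring mTOR complex 1 to the lysosome when amino acids are present, had 8 of 13 tested genes higher (61.5%), 1 lower (7.69%) and a median of 0.50. For RRAGD, a Rag GTPase, 6, 6 and 10 reads were counted in the shNC libraries against 80, 66 and 74 in the shNUF2 libraries. Its log2 fold change was 3.49 (standard error 0.32), with adjusted p = 2.20e-10 by the quasi-likelihood test of edgeR, Benjamini-Hochberg. RRAGC, its relative, was at 1.04 (0.10), FNIP2, a partner of folliculin, at 1.37 (0.11), and LAMTOR2, a Ragulator subunit named here because it was the lower gene (1 of 13), at -0.50 (0.08).

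The GATOR complexes, KICSTOR and the nutrient sensors relay amino acid levels to the Rag GTPases. Of 17 genes tested, 3 were higher and 7 lower, with a median of -0.17. The lower genes named by size were ITFG2, a KICSTOR subunit, at -0.95 (standard error 0.16), MIOS, a GATOR2 subunit, at -0.83 (0.09), and SESN2, a leucine sensor, at -0.75 (0.06). The number of higher genes was 1 instead of 3 without shNC replicate 1, shNC replicate 2, shNUF2 replicate 1 or shNUF2 replicate 2, and also with the replicate number as a block. The median was -0.09 without shNC replicate 2 or shNC replicate 3 and -0.07 without shNUF2 replicate 1. CASTOR1, an arginine sensor, had too few reads to be tested, as did PIK3R2 and EIF4EBP3 in the lists below.

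For PI3K, PDK1 and AKT, which activate mTOR complex 1 through TSC2, 7 of 13 tested genes were higher and 2 lower, with a median of 0.20. Those past the thresholds of the paper and described here had few reads, and were higher. For PIK3R1, a regulatory subunit of PI3K, 10, 9 and 12 reads were counted in the shNC libraries against 42, 41 and 25 in the shNUF2 libraries (log2 fold change 1.99, standard error 0.37). INPP4B, a phosphatase that opposes PI3K, was at 1.57 (0.30). The abundant AKT2, named outside the rule, was lower at -0.45 (0.04). Without shNUF2 replicate 2 the number of lower genes was 1.
The LKB1 and AMPK genes, which sense energy shortage and restrain mTOR complex 1, split evenly, with 3 higher, 3 lower and 3 not called of 9. The AMPK subunits PRKAG2 and PRKAB2 were at 1.06 (standard error 0.07) and 0.63 (0.05), and STRADA, a partner of LKB1, at -0.65 (0.13).

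Downstream, 6 of the 20 tested translation and autophagy effectors were higher and 9 lower, with a median of -0.11 (-0.08 without shNC replicate 2). Those past the thresholds of the paper were TFEB, a transcription factor for lysosomal genes, at -1.11 (standard error 0.11), ULK2, an autophagy kinase, at -1.11 (0.09), and PDCD4, a translation inhibitor, at -1.04 (0.05). PDCD4 was well covered, with 212 ± 6.28 CPM with shNC and 103 ± 3.42 CPM with shNUF2 (SD, n = 3 libraries each). Close relatives of members and of ULK2, named outside the rule, were EIF4EBP2 at -0.80 (0.05), RPS6KB2 at -0.23 (0.08) and ULK1 at 0.47 (0.05), so that the ULK relatives were called in opposite directions.
Finally, the list of the DDIT4 paralog, its partners and known inducers held 6 higher and 3 lower genes of 11 tested, with a median of 0.16 (0.10 without shNC replicate 3). ATF4, a transcription factor of the amino acid and stress response that induces DDIT4, was at -0.70 (standard error 0.04), with 356 ± 2.79 CPM with shNC and 219 ± 4.04 CPM with shNUF2. TP63, another known inducer, was at 1.56 (0.38) with at most 32 reads in a library. HIF1A, the inducer of DDIT4 in hypoxia and named outside the rule, was at 0.37 (0.04), while the paralog DDIT4L had 0 reads in every library.

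**Figure D5:**
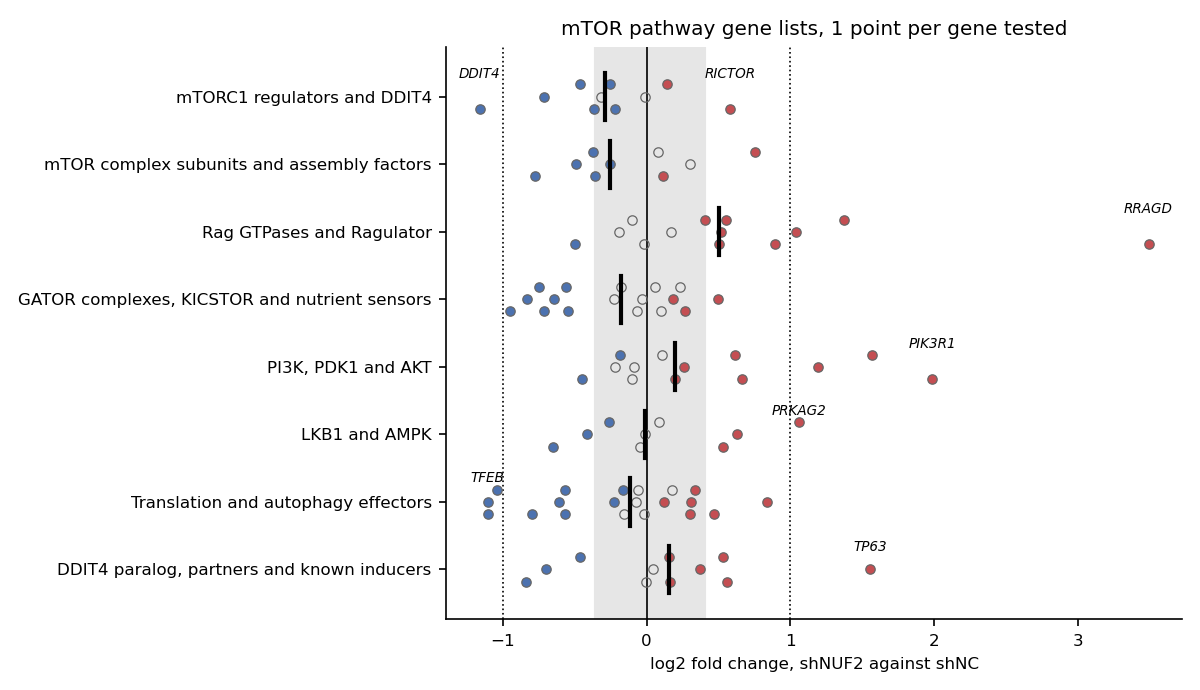
Log2 fold change, shNUF2 against shNC, of each tested gene in the 10 members (top row) and the 7 pathway lists, 1 point per gene. Blue points were lower and red points higher at an adjusted p under 0.05, open points were not called, black bars mark the median of each row, the grey band spans the interquartile range of all genes tested and a few genes are labelled above their point. Medians of the 7 lists run from -0.26 (mTOR complex subunits) to 0.50 (Rag GTPases and Ragulator), and RRAGD at 3.49 is the highest point.

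The genes whose profile was most like that of DDIT4 were sought among 11680 tested genes outside the member list whose mean log2 CPM was 1 or more, by the root mean square difference between log2 CPM values centred on each gene's mean over the 6 libraries. The 5 nearest were AATK (difference 0.0269), TCF12 (0.0338), GKAP1 (0.0364), PIK3C2B (0.0391) and COL9A3 (0.0477). Their log2 fold changes lay between -1.18 for GKAP1 and -1.08 for COL9A3. With 6 libraries in 2 groups, genes whose change is of similar size come out near each other by construction.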

How the data were processed

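RNA of OVCAR3 cells was extracted with TRIzol and sequenced for the authors by a service company on an Illumina NovaSeq instrument from stranded mRNA libraries. According to the submitters' processing notes, cutadapt, HISAT and HTSeq were used with GRCh38.p13; versions, parameters and the annotation release are not given in the sources used here. The authors deposited unnormalized read counts per gene and FPKM values, which equal the count per gene length and library total to a relative deviation of 2.71e-07. The table lists 19973 genes, and 16861 have a count in some library. Ratios and levels between genes used the deposited FPKM.

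The main test was that of edgeR 4.0.16 run in R 4.3.3 (filterByExpr, TMM scaling, quasi-likelihood test of 3 shNUF2 against 3 shNC libraries, no covariate), with Benjamini-Hochberg adjustment over the 12874 genes tested. CPM are counts per 1000000 of TMM-scaled totals, and log2 CPM used a prior count of 2. Ratios were compared with exact permutation tests over libraries (Python 3.11.15, numpy 2.4.6). No replicates of a group agreed within sampling noise (chi-square per degree of freedom 2.65 to 4.37). The scripts were tested on simulated data. Promoters were matched to RefSeq by symbol, and 8 of 10 members had an entry; exon overlaps and transcripts came from GENCODE release 29.

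All members and NUF2 are named. In each pathway list, genes past the thresholds of the paper are named, then the largest changes with an adjusted p under 0.05 and no overlap between groups, up to 3; some of these are not reported here. Genes named outside this rule (LAMTOR2, AKT2, EIF4EBP2, RPS6KB2, ULK1, HIF1A and overlapping genes) were chosen after their values were seen. The members and lists were chosen with earlier results of these data known. Alternatives were other scalings, filters, DESeq2 1.42.0, limma 3.58.1 on log2 FPKM (pseudocounts 1 and 0.1), a replicate block and each library left out.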

Additional observations from a re-analysis of the deposited data

How the results depend on the processing

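DDIT4, MTOR, RPTOR, RICTOR, TSC2, EIF4EBP1 and RPS6KB1 kept their direction and an adjusted p under 0.05 under all 15 alternatives, with DDIT4 between -1.20 and -1.14 on the log2 scale. The log2 fold change of RHEB, which was not called, turned positive when each library had to reach 1 CPM (0.0129) and without shNC replicate 3 or shNUF2 replicate 3, and ranged from -0.0601 to 0.0311 with each library left out. The number of members called higher was 1 instead of 2 with library totals only, with no filter and with limma at either pseudocount, and ranged from 1 to 2 with each library left out, because TSC1 was lost. The log2 ratio of TSC1 to TSC2 was 0.44 with FPKM plus 1. Limma on log2 of FPKM plus 1 gave smaller log2 fold changes for genes with few reads, such as 0.89 for RRAGD and 0.23 for PIK3R1, as the pseudocount implies. In the list of mTOR complex subunits the number of higher genes was 1 instead of 2 with upper quartile scaling, library totals only, no filter, DESeq2 or limma at either pseudocount. In the GATOR list the number of higher genes was 1 instead of 3 with library totals only, no filter or DESeq2, and in the PI3K list the number of lower genes was 4 with library totals only or no filter and 1 with DESeq2, instead of 2. Libraries with the same replicate number did not deviate together (correlations 0.0205, 0.00456 and -0.0298 across 12874 genes, with only replicate 1 closest to its own number). With the replicate number as a block, 2 members were higher and 6 lower, as without it, and DDIT4 was at -1.16. The shifts of the median over all genes between scalings were under 0.1. With 3 libraries per group, permutation tests cannot go below p = 0.10, and DEPTOR, with 82 to 161 reads, has the least precise value of the 10 members.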
